A study of Mus musculus with 21 samples.

Results

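The clustered replication-dependent histone genes were followed through mouse spermatogenesis as a group of 65 genes among 24456 gene rows. They were chosen by name, as every gene whose symbol starts with Hist1h, Hist2h, Hist3h or Hist4h, without the testis-specific genes Hist1h1t, Hist1h2aa and Hist1h2ba. The 65 genes comprised 5 linker histone H1 genes, 17 H2A, 18 H2B, 12 H3 and 13 H4 genes. On the mouse genome build mm10, 51 of them lie in the Hist1 cluster on chromosome 13, 10 in Hist2 on chromosome 3, 3 in Hist3 on chromosome 11 and 1, Hist4h4, on chromosome 6. GENCODE M21 lists 64 of the 65 as protein coding, and Hist3h2bb-ps as a pseudogene. RNA was sequenced from spermatogenic cell fractions of wild-type and *H2al2* KO mice, the KO lacking the late H2A variant H2A.L.2. The fractions were pachytene spermatocytes, round spermatids and condensing spermatids, each with 3 wild-type and 3 KO libraries, and spermatozoa, with 2 wild-type libraries and 1 KO library. All 21 libraries were total RNA from testis with ribosomal RNA depleted. The strain, the age of the mice and the design of the KO allele were not given in the sources used here, and the labels do not say which libraries share an animal, so the p-values below measure the spread between libraries.

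In dividing cells, replication-dependent histone genes are transcribed in S phase, when new DNA must be packaged. H2A, H2B, H3 and H4 form the nucleosome core and H1 binds the linker between cores. Their mRNAs carry no poly(A) tail and end instead in a short stem-loop that is bound by SLBP, so a total RNA library holds them where a poly(A)-selected one would lose most. Pachytene spermatocytes have long finished their last S phase, and in spermatids most histones are replaced by transition proteins and then protamines.

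The stem-loop was searched as 16 bases that begin with GG, end with CC and hold T at positions 6, 7 and 9 and A at position 11. It was found in a GENCODE M21 transcript of 45 of the 65 genes, against 1224 of 21901 protein-coding genes (5.59%). Several of the 20 without it are annotated without the end of the mRNA, so no match here says only that the letters are not in the annotated transcript. The sites below are shown because they are what the members share, with the 16 letters of the stem-loop in capitals, 5 flanking bases in lower case on each side, and coordinates of the capitals on mm10 (GRCm38). All are in the annotated transcript after the coding sequence. The first form was found in 3 H1, 10 H2A, 8 H2B and 5 H3 genes, and 7 of the 13 H4 genes carried the form of Hist1h4c.
Hist3h2a, H2A, chr11:58955172-58955187, plus strand: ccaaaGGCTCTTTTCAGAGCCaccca
Hist1h2bp, H2B, chr13:21787923-21787938, plus strand: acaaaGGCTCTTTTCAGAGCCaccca
Hist1h1c, H1, chr13:23739512-23739527, plus strand: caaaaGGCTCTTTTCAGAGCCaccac
Hist1h3f, H3, chr13:23544932-23544947, plus strand: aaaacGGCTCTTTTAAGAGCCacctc
Hist2h2ac, H2A, chr3:96220418-96220433, minus strand: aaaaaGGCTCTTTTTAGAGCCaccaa
Hist1h4c, H4, chr13:23698089-23698104, minus strand: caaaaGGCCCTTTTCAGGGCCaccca
Stem-loops of the same letters stood in genes that behaved differently: Hist3h2a fell after meiosis and Hist1h2bp rose, as given below, and both carried the first form.

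Promoters were read from the RefSeq table of GRCm38.p6, which held 59 of the 65 genes, as the 150 bases before the start of transcription. The motifs, searched on both strands, were the TATA box (TATAAA), the CCAAT box (its 5 letters) and the octamer (ATTTGCAT). CCAAT was present in 48 of the 59 promoters (81.4%) against 25% of all 27025 promoters, in all 17 H2A and all 15 H2B promoters with a sequence but in 3 of 12 H4 promoters. TATAAA was present in 22 of 59 (37.3% against 8.07%). The octamer was present in 4 H2A and 6 H2B promoters and in no other member, 16.9% of members against 1.02% of all promoters. CACGTG was present in 0 of the 59, against 4.17% of all promoters. The promoters of the member with the highest level in pachytene cells (Hist3h2a), of a member that held its level until the condensing stage (Hist1h1a) and of the member that rose in round spermatids (Hist1h2bp) are shown 5′ to 3′ on their own strand with these motifs in capitals.
Hist3h2a, chr11:58954535-58954684, plus strand: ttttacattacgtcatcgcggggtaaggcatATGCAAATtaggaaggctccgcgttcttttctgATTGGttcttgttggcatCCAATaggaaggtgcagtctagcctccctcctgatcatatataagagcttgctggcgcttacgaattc
Hist1h1a, chr13:23763518-23763667, plus strand: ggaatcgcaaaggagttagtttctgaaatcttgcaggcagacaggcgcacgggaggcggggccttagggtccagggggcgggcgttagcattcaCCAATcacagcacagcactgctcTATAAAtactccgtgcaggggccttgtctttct
Hist1h2bp, chr13:21787338-21787487, plus strand: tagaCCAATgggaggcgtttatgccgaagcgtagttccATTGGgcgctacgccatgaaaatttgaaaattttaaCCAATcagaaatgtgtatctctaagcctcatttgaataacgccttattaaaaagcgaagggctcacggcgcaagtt
The motifs found in members were also counted by the change of the members after meiosis, tested below. CCAAT stood in 9 of the 13 promoters of members lower in wild-type round spermatids than in pachytene cells and in 22 of 26 of the other tested members, TATAAA in 4 of 13 and 10 of 26, and the octamer in 3 of 13 and 5 of 26.

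The deposited counts on genes ran from 2772995 to 8201682 per library (median 6872271). The file rows hold no *H2al2* symbol. H2afb1, which the RefSeq table lists as an older symbol both of H2al2a (the gene of H2A.L.2) and of H2ab1, stood at 14.5 to 40.5 normalised CPM (reads scaled to a common library size, with trimmed-mean factors) in wild-type pachytene cells and 3.1 to 4.9 in KO cells, and at 201 to 212 against 20.7 to 25.4 in round spermatids. Pachytene markers (10 genes) summed to 2100 to 2759 CPM in wild-type pachytene cells and 608 to 690 in round spermatids, so those labels held by these markers. Spermatid markers were also present in wild-type pachytene libraries. Round spermatid markers summed to 469 to 746 CPM against 1886 to 2085 in round spermatids, and elongating ones to 2464 to 6016 against 28960 to 31900. The pachytene markers were back at 950 to 1155 CPM in condensing spermatids. Markers of somatic cells were also present there: the 10 Sertoli genes summed to 424 to 537 CPM against 40.4 to 61.2 in round spermatids, and the 9 Leydig genes to 166 to 252 against 14.1 to 17.0. Wild-type pachytene cells held the Leydig genes at 84.2 to 172 CPM, and 8 of the 9 were lower in round spermatids. Peritubular myoid genes (7) summed to 57.6 to 97.5 CPM in pachytene cells and 332 to 338 in round spermatids. Of tested genes, 4 of 9 Sertoli, all 8 macrophage and 1 of 6 myoid genes were higher in round spermatids, and 1 myoid gene was lower. The part of somatic RNA in the members' changes was not tested. Markers of spermatogonia and preleptotene cells (12 genes), which include genes of dividing cells, summed to 375 to 555 CPM in wild-type pachytene libraries. They summed to 362 to 388 in round and 340 to 400 in condensing spermatids, and 1 was higher and 1 lower in round than in pachytene cells. Spermatozoa held macrophage markers (9 genes) at 1609 to 1713 CPM in wild type, against 87.4 at most in the wild-type libraries of the other stages. Replicates 2 and 3 of wild-type round spermatids were nearly alike: over genes with 100 to 1000 reads their mean chi-square was 1.06, where sampling alone gives about 1, and over the members it was 1.12, against 1.58 to 12.9 for the other 18 replicate pairs. In genes over 10000 reads they differed more (8.76), so they were kept apart, and the counts of members called in comparisons with wild-type round spermatids are also given with both summed.

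**Figure D1:**
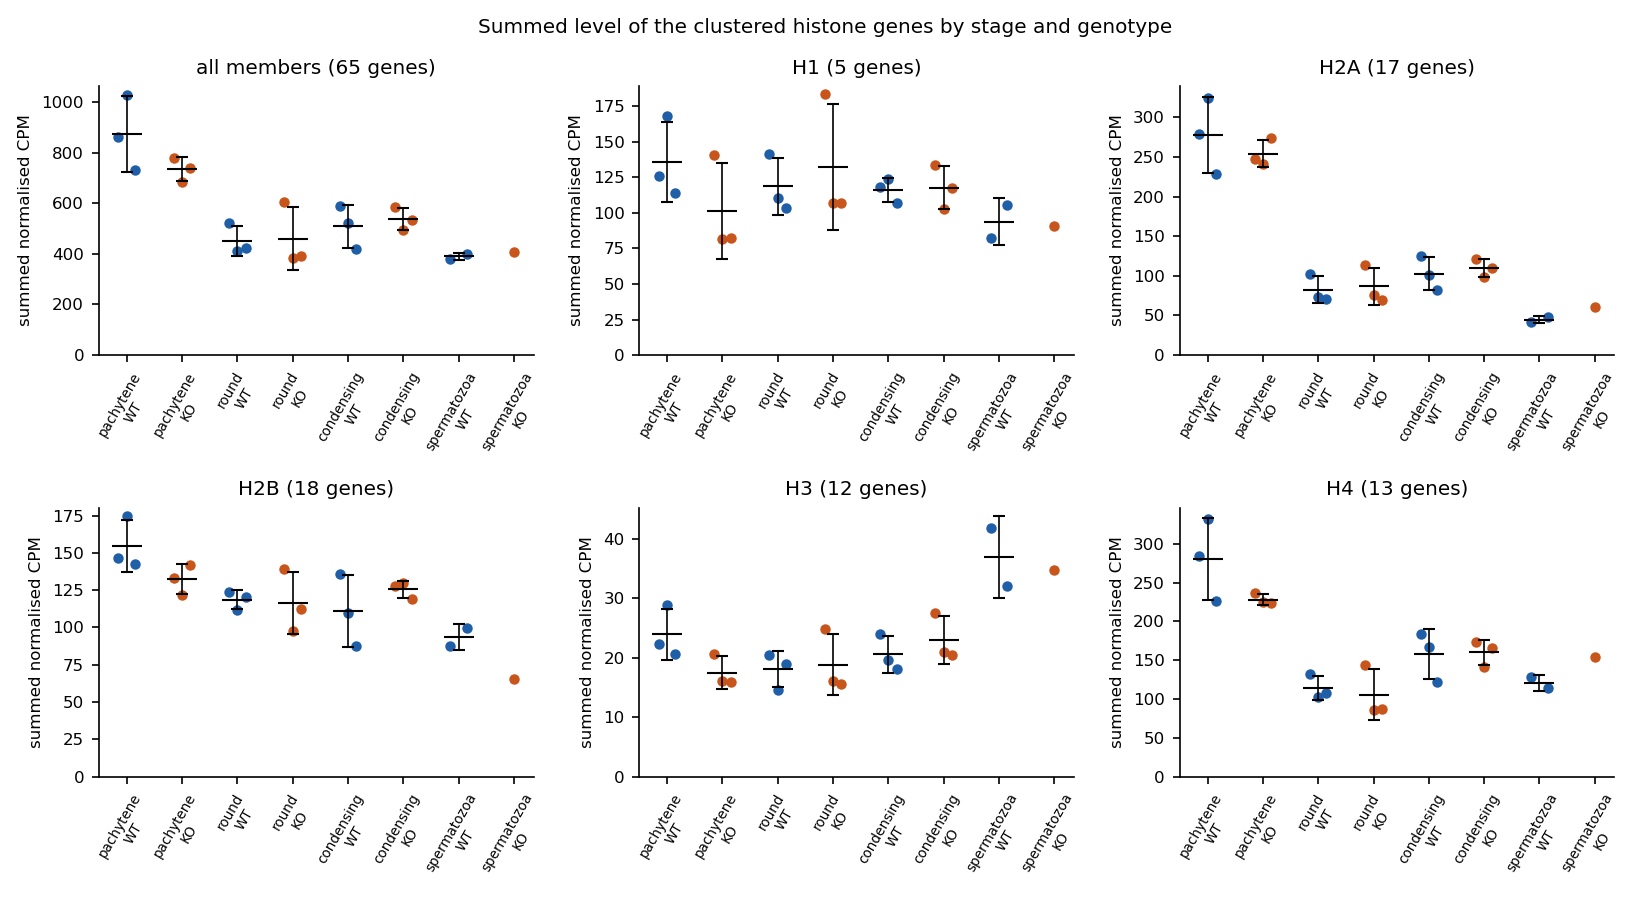
Summed normalised CPM of all members and of each histone type, with stage and genotype on the x axis. Points are libraries (blue wild type, orange KO), horizontal marks are means and bars are SD. The 6 pachytene libraries lie above all others for H2A and H4, whereas the H1 sums of pachytene, round and condensing libraries overlap.

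The members took 79477 reads in all, and a few genes took most of them. In wild-type pachytene cells the summed level of the 65 genes was 859, 1028 and 732 CPM (873 ± 148, SD, n = 3). It was 520, 413 and 422 CPM in round spermatids (452 ± 59.6, n = 3), below every pachytene library, and 587, 522 and 418 CPM in condensing spermatids (509 ± 85.4, n = 3), which overlapped with round spermatids. Spermatozoa gave 381 and 399 CPM. The KO followed the same order, at 734 ± 46.8, 460 ± 126 and 537 ± 44.5 CPM (n = 3 each), and its single spermatozoa library gave 405. KO round spermatid replicate 1 stood apart at 605 CPM, against 383 and 392 in the other replicates. In bulk fractions like these, fewer cells of a type and less RNA per cell cannot be told apart.

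Histone types contributed unequally. H2A summed to 278 ± 48.0 CPM in wild-type pachytene cells and 82.4 ± 17.0 in round spermatids, and H4 to 281 ± 52.9 and 114 ± 15.9, with no overlap between the stages for either. H2B gave 155 ± 17.6 and 119 ± 6.43 CPM, also without overlap, and H1 136 ± 28.3 and 119 ± 20.3, which overlapped. H3 was the lowest type in pachytene, round and condensing cells, at 23.9 ± 4.32 CPM in pachytene cells and 18.1 ± 3.06 in round spermatids. These H3 libraries were barely apart (20.6 at the lowest in pachytene cells, 20.5 at the highest in round spermatids). H3 was also the type with a higher sum in both wild-type spermatozoa libraries (41.8 and 32.1) than in any other wild-type library. By cluster, Hist2 went from 80.8 ± 5.56 to 17.7 ± 1.22 CPM between pachytene and round cells, Hist3 from 249 ± 41.9 to 66.2 ± 18.03 and Hist1 from 524 ± 94.4 to 360 ± 36.8, each with no overlap. These are sums of chosen genes and were not tested.

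Per kilobase of transcript, over the 9 wild-type libraries of the first 3 stages, the highest member was Hist3h2a (241 CPM per kb), followed by Hist1h4c (190), Hist1h1a (117), Hist1h4h (81.0), Hist1h4k (51.7) and Hist1h2bp (45.3). Lengths were those of RefSeq (508 bases for Hist3h2a). For Hist1h2bp (706 bases), Hist1h2bc, Hist1h2be, Hist1h2bq and Hist1h2br they were the union of GENCODE exons, so close ranks may depend on the source. The most abundant H3 gene, Hist1h3a, stood at 12.7 CPM per kb. In wild-type pachytene cells Hist3h2a alone held 26.9% of the members' CPM, and with Hist1h4c and Hist1h1a the share was 51.6%. In round spermatids Hist1h1a led with 19.0%, before Hist3h2a with 12.3% and Hist1h2bp with 10.3%. At the other end, 6 members had no read in any of the 21 libraries (Hist1h2ap, Hist1h2bq, Hist1h2br, Hist2h2aa1, Hist2h3c1 and Hist2h3c2), which allows at most 3 reads in a library, and 11 more had under 100 reads in all. Reads that align equally well to several genes were not assigned. Of the 65 genes, 27 share more than 50% of their 75-base windows with a gene elsewhere, 5 share none, and the median is 38.5%. Values of near-identical members, among them Hist2h2aa2 (100% of windows shared), Hist1h3h (93.5%) and Hist1h2ai (89.3%), are therefore uncertain, and a member at 0 reads is not shown to be silent. Filtering on low counts left 47 members in at least 1 comparison and 18 in none.

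**Figure D2:**
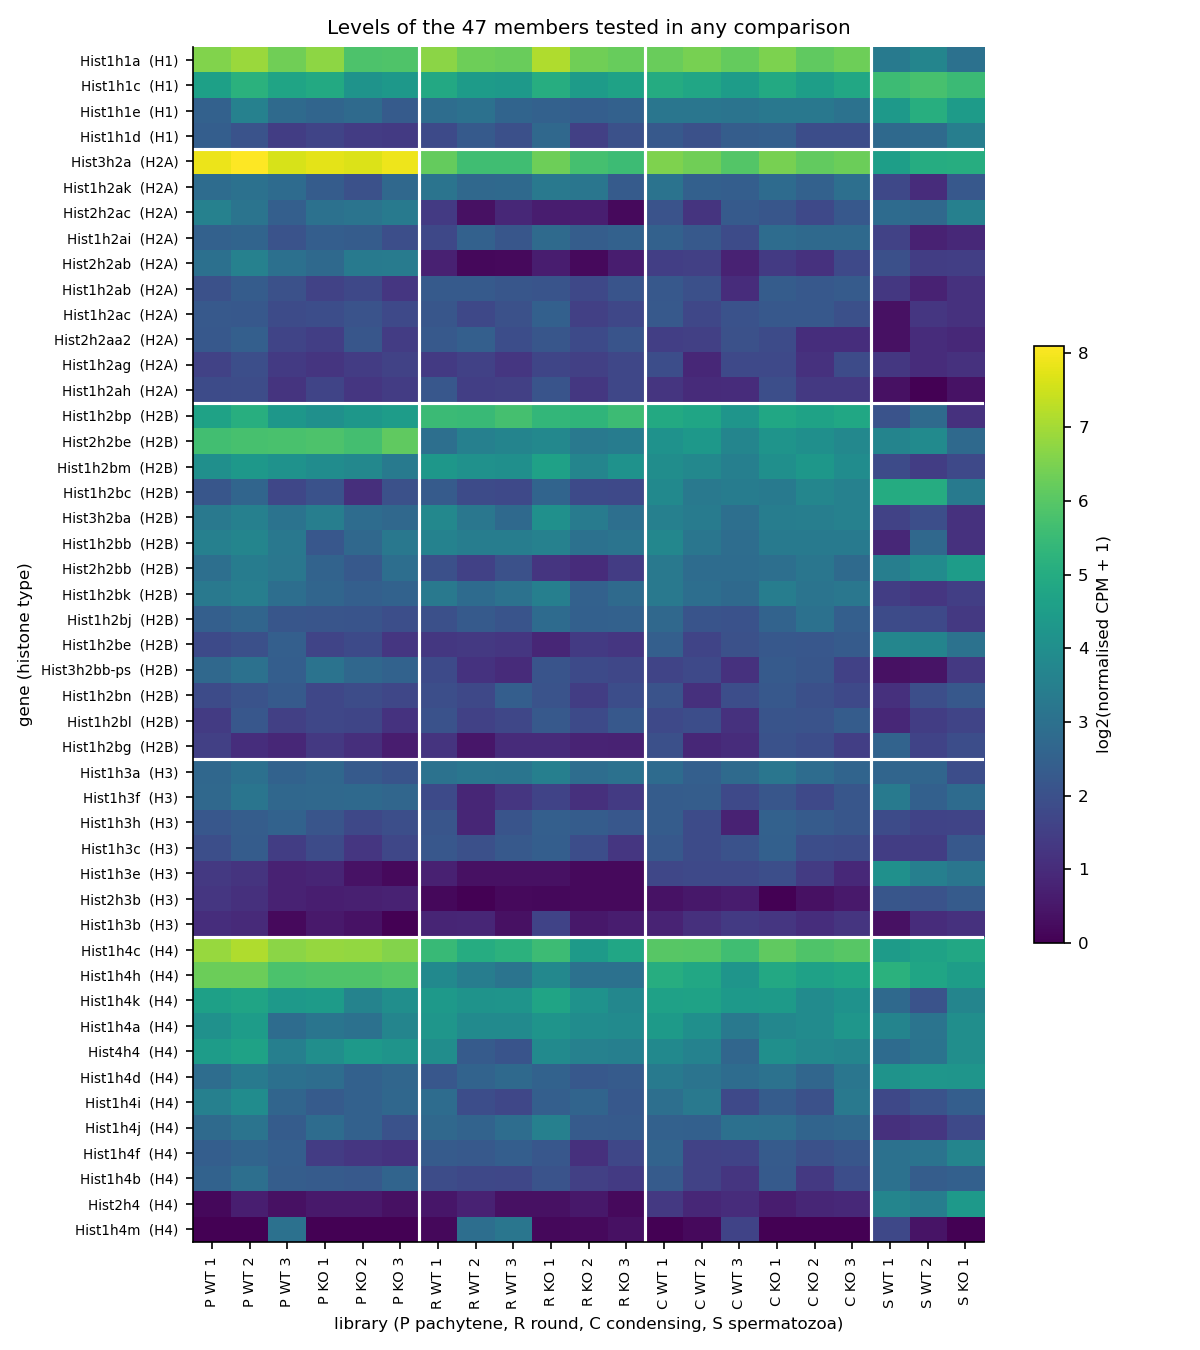
Levels of the 47 members tested in any comparison, as log2(normalised CPM + 1), with genes in rows by histone type and the 21 libraries in columns by stage. Hist3h2a, Hist1h4c, Hist1h4h and Hist2h2be are bright in the 6 pachytene columns and darker after them, Hist1h1a is bright until spermatozoa, and Hist1h4m is visible in 5 columns.

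The first comparison asked how the members change when meiosis is completed. In wild-type cells 15 of 43 tested members were lower in round spermatids than in pachytene spermatocytes and 1, Hist1h2bp, was higher (adjusted p under 0.05, by the quasi-likelihood test of edgeR, corrected over all genes tested by the Benjamini-Hochberg method). Of all 14011 genes tested 35.9% were lower and 34.4% higher, or 70.3% called in either direction. The share of members that fell (34.9%) was thus close to that of all genes, and 2.33% rose. Tested members had a median of 34.3 reads per library and all tested genes 124, which also bears on how many could be called. The median log2 fold change was -0.25 over members and -0.02 over all genes tested. With round spermatid replicates 2 and 3 summed the counts were 14 lower and 1 higher.

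By type, the members that fell were 3 of 10 tested H2A genes, 4 of 13 H2B, 2 of 5 H3 and 6 of 11 H4, and none of the 4 tested H1 genes passed the test. By cluster they were 8 of 34 tested Hist1 genes, 4 of 5 Hist2 genes, 2 of 3 Hist3 genes and Hist4h4. Of members whose GENCODE transcript runs 200 bases or more past the stem-loop, 8 of 13 fell, against 3 of 17 of those whose transcript ends closer to it and 4 of 13 of those without the letters, beside 35.9% of all genes. In KO cells the same classes gave 4 of 12, 3 of 17 and 4 of 13 lower, beside 38.4% of all genes. Members that share more than 50% of their windows gave 1 call among 13 tested.

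**Figure D3:**
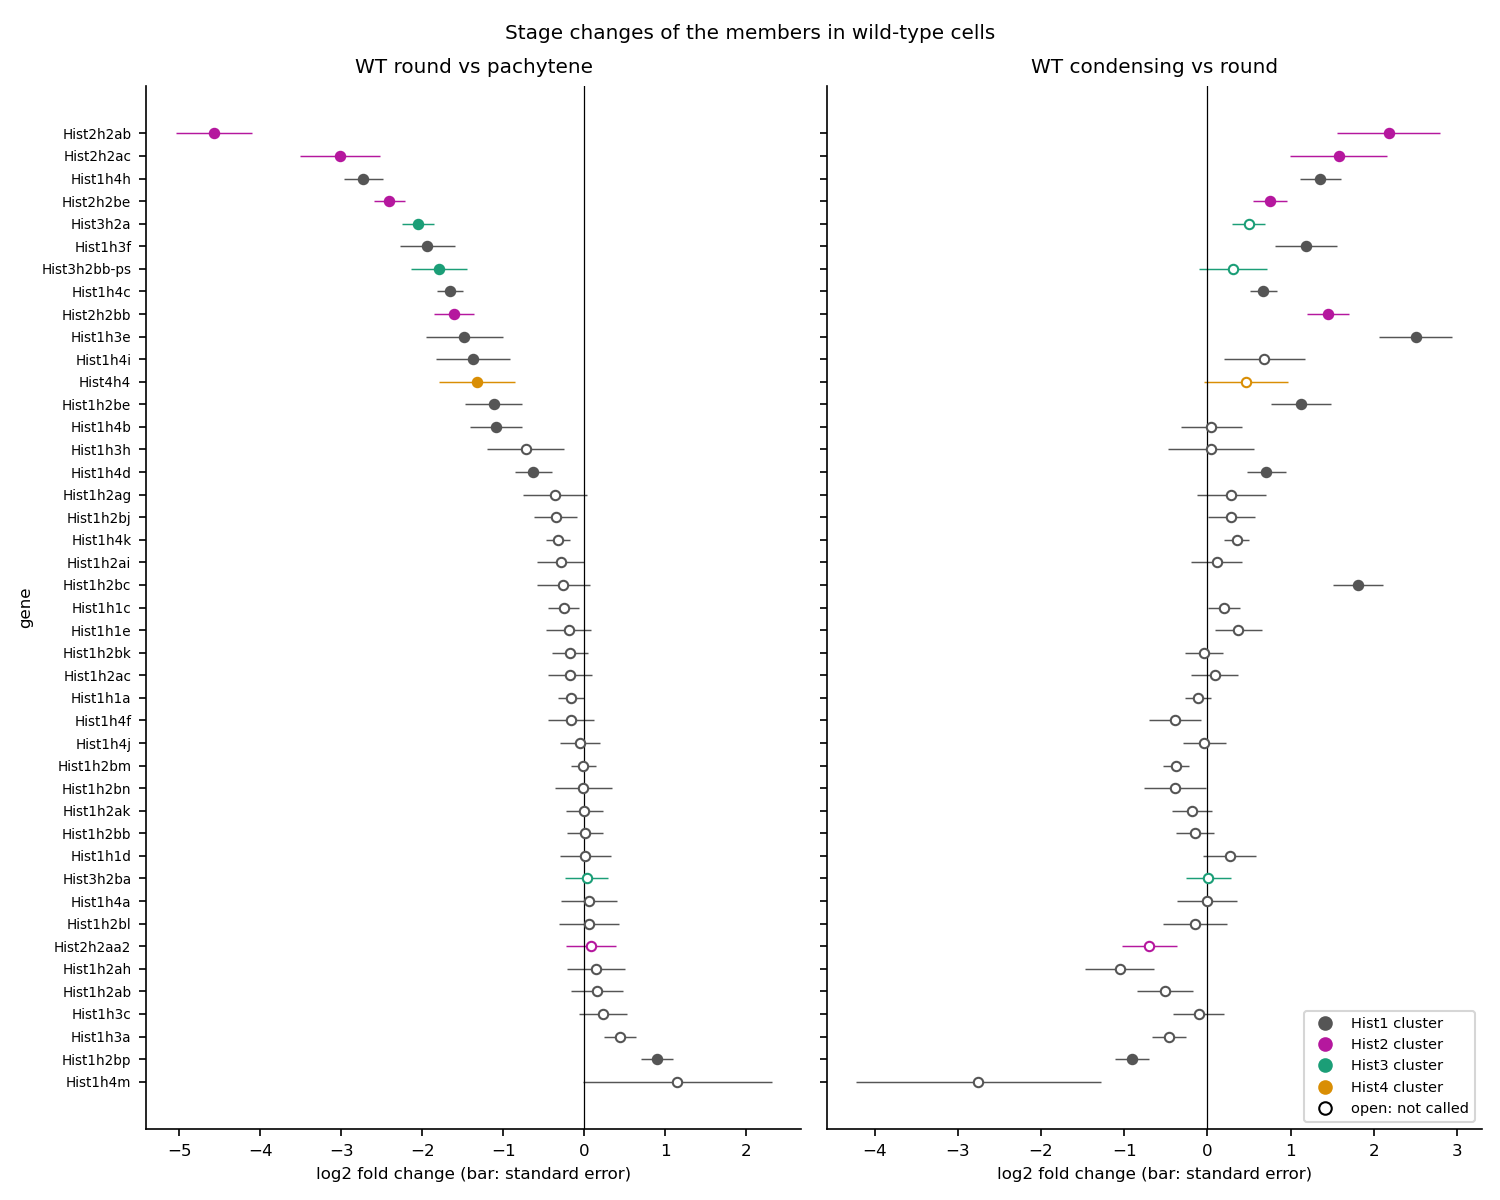
Log2 fold change of each tested member in wild-type cells, from pachytene to round (left) and from round to condensing (right), in the order of the left panel. Bars are standard errors, filled points passed an adjusted p of 0.05, and colours mark the gene cluster. Most genes at the top left, Hist2 and Hist3 genes among them, lie to the right of 0 in the right panel. Both panels use the same round libraries.

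Hist3h2a, the H2A gene of the small chromosome 11 cluster and the most abundant member, lies at chr11:58954685-58956830 on the plus strand in GENCODE M21 and overlaps Trim17 on the same strand, so its reads may not all be its own. It measured 234, 274 and 196 CPM in wild-type pachytene cells, 71.5, 47.7 and 47.6 in round spermatids and 91.9, 79.5 and 59.8 at the condensing stage. The pachytene libraries lay far above the round ones, without overlap, a log2 fold change of -2.05 (SE 0.20, adjusted p = 1.08e-06, edgeR). Hist3h2bb-ps, the pseudogene 172 bases away on the other strand, fell as well (log2 fold change -1.79, SE 0.35, adjusted p = 0.000436, edgeR). Hist3h2ba, the H2B gene of the same cluster, gave 0.03 with SE 0.26 and did not pass.

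In the Hist2 cluster, Hist2h2ab, Hist2h2ac and Hist2h2be lie side by side on chromosome 3, 52 and 238 bases apart, and all fell. Hist2h2be, an H2B gene, measured 49.0, 52.7 and 53.6 CPM in wild-type pachytene cells and 6.8, 10.6 and 11.5 in round spermatids, so the groups were well apart (log2 fold change -2.41, SE 0.19, adjusted p = 2.38e-07, edgeR). Hist2h2ab, an H2A gene, had 58, 92 and 47 reads in pachytene cells and 5, 1 and 1 in round spermatids. With so few reads left, the counts themselves say more than the fitted change, -4.57 (SE 0.47, adjusted p = 1.7e-06, edgeR). Hist2h2ac, whose stem-loop differs from the first form in its loop, had 90, 65 and 31 reads and then 12, 2 and 6. Hist2h2bb, an H2B gene and the highest of its cluster per length, went from 6.8, 9.5 and 8.3 CPM to 3.0, 2.0 and 3.0, again without overlap. Hist2h2aa2 was the 1 tested gene of the cluster that did not fall (0.09, SE 0.30).

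The H4 genes split. Hist1h4c, which lies 909 bases from the testis linker histone gene Hist1h1t, measured 114, 140 and 102 CPM in wild-type pachytene cells and 43.3, 31.6 and 36.0 in round spermatids, a log2 fold change of -1.66 (SE 0.16, adjusted p = 1.04e-06, edgeR). Hist1h4h went from 77.5, 76.2 and 54.8 CPM to 13.3, 9.9 and 7.7, at -2.73 (SE 0.24, adjusted p = 4.73e-07, edgeR). Neither gene's groups overlapped, which was a condition for naming members by their test and so adds no separate support. In this step the groups of 73.2% of all tested genes and 37.2% of tested members did not overlap. Hist1h4k, the third H4 gene by level, measured 23.3, 25.7 and 19.4 CPM and then 19.7, 16.9 and 17.4, and did not pass (adjusted p = 0.0638, edgeR). Of its windows, 68.1% are shared with other genes.

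Hist1h1a, which encodes a linker histone of testis and dividing cells, was the member whose high level persisted. It measured 93.5, 118 and 80.8 CPM in wild-type pachytene cells, 103, 78.3 and 75.6 in round spermatids and 75.3, 85.4 and 72.5 at the condensing stage. The 3 stages overlapped, and neither step passed the test (log2 fold changes -0.17, SE 0.16, and -0.11, SE 0.16). The linker histone genes Hist1h1c and Hist1h1e stood lower and passed neither test, Hist1h1c at 28.1 ± 6.32, 23.2 ± 4.67 and 26.1 ± 4.69 CPM, and Hist1h1e at 7.18 ± 3.29, 6.21 ± 1.03 and 7.90 ± 0.15 CPM (n = 3 each). A p that misses the threshold does not show that the levels were equal.

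Hist1h2bp, an H2B gene, was the 1 member that rose in wild-type round spermatids. Its levels were 24.4, 32.7 and 18.4 CPM in pachytene cells, 44.5, 44.2 and 51.0 in round spermatids and 29.0, 26.0 and 17.9 at the condensing stage. The round libraries stood above all other wild-type libraries, by a log2 fold change of 0.90 over pachytene (SE 0.20, adjusted p = 0.0012, edgeR), and the fall to the condensing stage was -0.91 (SE 0.20, adjusted p = 0.00265, edgeR). Outside the members, the genes whose levels over the 21 libraries were most like it were Itgb1bp1, Efcab10 and Cep89 (Pearson's r of log2(CPM + 1) 0.990, 0.988 and 0.985), which describes these libraries only. Hist3h2a was most like Urb1, Smyd1 and the replacement histone H2afx (0.988, 0.986 and 0.985), Hist1h4c most like the testis H2B gene Hist1h2ba (0.97), Tmem38b and D030056L22Rik (0.96 each), and Hist1h1a most like Cenpw (0.97), Ldhc and Upf3a (0.96 each). For the H3 gene Hist1h3a the closest genes, H2afy2, Tmem108 and Bag4, reached 0.83 each. The 21 libraries share stages, so these correlations mostly follow stage.

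The same step was measured in KO cells, in libraries that share none with the wild-type fit. There 11 of 42 tested members were lower in round spermatids and 8 higher, against 38.4% lower and 36.5% higher, or 74.9% called, of all 13877 genes tested. All 11 were among the 15 lower in wild type (73.3% of the wild-type list), and Hist1h2bp was higher in both. Hist1h4h (57.6, 57.8 and 61.5 CPM to 12.8, 7.1 and 7.2) changed by -2.72 (SE 0.17, adjusted p = 1.62e-11, edgeR). Hist2h2be (-2.52, SE 0.16) and Hist3h2a (-1.91, SE 0.15) changed by amounts close to those in wild type. The median log2 fold change of the members was 0.34 in KO cells, against 0.00 over all genes tested, and -0.01 without KO round spermatid replicate 1. The higher calls rested partly on that library: without it there were 3 in place of 8, and with scaling by library size alone also 3, whereas the lower calls stayed at 11 and 12. That scaling moved the median of all genes to -0.15 in KO cells and -0.20 in wild type. Hist1h4a, an H4 gene, was among the higher ones, at 7.9, 7.1 and 11.8 CPM in KO pachytene cells and 17.4, 14.2 and 13.8 in round spermatids (log2 fold change 0.73, SE 0.19, adjusted p = 0.00215, edgeR), and so was Hist1h3a (5.5, 4.0 and 3.3 to 10.3, 6.5 and 7.2 CPM, log2 fold change 0.89, SE 0.26, adjusted p = 0.00415, edgeR).

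The next comparison followed the members into condensing spermatids. In wild type 11 of 43 were higher than in round spermatids and 1, Hist1h2bp, lower, against 28.3% and 21.8%, or 50.0% called, of all genes tested. With round spermatid replicates 2 and 3 summed the counts were 10 higher and 1 lower. Of the 15 members that had fallen, 10 were among the 11 that rose, and the remaining 1 was the H2B gene Hist1h2bc. Both steps were measured against the same round spermatid libraries, so a low value there favours both calls. How many of all genes fell and then rose was not counted. In KO cells 13 of 42 were higher and 2 lower (29.7% and 24.5%, or 54.2%, of all genes), and 10 members rose in both genotypes. The median log2 fold change of the members was 0.11 in wild type and 0.24 in KO, against 0.04 and 0.03 over all genes. The share that rose was close to that of all genes in this step (25.6% of tested members in wild type and 31.0% in KO), and 2.33% and 4.76% were lower.

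Hist1h4h, Hist1h4c and Hist3h2a had mean levels below those of pachytene cells at the condensing stage in both genotypes. Wild-type round spermatids held 14.8% of the pachytene level of Hist1h4h and condensing spermatids 37.3%. For Hist1h4c the shares were 31.2% and 48.8%, and for Hist3h2a 23.7% and 32.9%, the latter not passing the test in wild type (log2 fold change 0.50, SE 0.20, adjusted p = 0.0504, edgeR). Hist2h2bb went from 2.0 to 3.0 CPM in wild-type round spermatids to 6.2 to 8.8 in condensing ones (log2 fold change 1.45, SE 0.25, adjusted p = 0.000539, edgeR), and in KO cells from 1.0 to 1.7 CPM to 6.0 to 8.0. Hist1h2bc, which had not changed detectably in the first step, measured 4.0, 2.6 and 2.5 CPM and then 13.5, 8.7 and 9.5 (log2 fold change 1.81, SE 0.30, adjusted p = 0.000347, edgeR). Hist1h3e, an H3 gene, had 5, 2 and 2 reads and then 15, 17 and 14, so its change rests on few reads. The pachytene markers rose over the same step (6 of 10 higher and 1 lower), as did all 9 tested Sertoli and all 9 Leydig markers. Of the 12 spermatogonium and preleptotene markers 5 were higher and 1 lower. Their part in the members' rise was not tested. The 3 testis histone genes that the selection left out followed the same course: Hist1h1t, the testis linker histone, went from 819 to 1139 CPM in wild-type pachytene cells to 17.6 to 30.2 in round and 159 to 216 in condensing spermatids, and Hist1h2aa and Hist1h2ba also fell and then rose.

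Spermatozoa differed from condensing spermatids in their makeup. Non-unique alignments, which were not assigned to genes, made up 15.5% and 15.4% in the wild-type spermatozoa libraries, against 4.35% to 4.82% in wild-type condensing ones. Counts on genes were 3450580 and 2772995, against 5876464 to 6676636. The part of both differences in the calls below was not tested. In wild type 13 of 45 tested members were higher and 15 lower, against 36.6% and 35.8%, or 72.4% called, of all 15116 genes tested, with a median of -0.54 over members and 0.00 over all genes. Hist1h1a fell from 75.3, 85.4 and 72.5 CPM to 9.1 and 12.0, and stood at 7.1 in the KO library (log2 fold change in wild type -2.86, SE 0.20, adjusted p = 6.78e-11, edgeR). Hist1h4k fell by 2.25 and Hist1h2bp by 2.40 on the log2 scale (SE 0.29 and 0.31), and all 3 Hist3 genes fell. Higher members included Hist2h4, an H4 gene with 10, 6 and 6 reads in condensing spermatids and 40 and 28 in spermatozoa (log2 fold change 3.24, SE 0.40, adjusted p = 2.86e-07, edgeR). The H1 gene Hist1h1e went from 8.0, 8.0 and 7.7 CPM to 20.0 and 33.2 (1.76, SE 0.24, adjusted p = 1.31e-06, edgeR), and Hist1h3e from 2.3, 2.5 and 2.5 CPM to 15.6 and 10.2 (2.45, SE 0.33, adjusted p = 1.2e-06, edgeR). Hist1h1e overlaps Gm11398 and the member Hist1h2be on the same strand in GENCODE M21, so its reads may not all be its own. Macrophage markers stood at 1609 to 1713 CPM in these libraries, and their part in the higher members was not tested. DESeq2 called 9 higher and 11 lower, and keeping only genes with 10 counts in every library left 19 members with 10 higher and 4 lower. The shares of all genes called in these alternatives are not given here.

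The comparison of KO against wild type called no member at any of the 3 stages tested. None of 41 tested members passed in pachytene cells, where 0.00% of all genes did, none of 39 in round spermatids (0.0156% of all genes) and none of 42 in condensing spermatids (0.00728%), by edgeR's quasi-likelihood test. At an unadjusted p under 0.05 there were 7, 3 and 4 members. Of all genes, 815 of 12236, 753 of 12804 and 870 of 13734 were under that value. DESeq2 called 0 members at each stage. With wild-type round replicates 2 and 3 summed the count in round spermatids was 0 as well (3 at an unadjusted p under 0.05). In pachytene cells 37 of the 41 members had a negative log2 fold change (90.2%, against 49.1% of all genes tested), with a median of -0.36 against 0.01. The summed level there was 732 to 1028 CPM in wild type and 685 to 779 in the KO, which overlap, and the members share their libraries, so the common sign is not 41 separate observations. Cell type markers gave medians of -1.08 (Leydig, 8 tested), -0.69 (Sertoli, 4), -0.45 (elongating spermatid, 10) and -0.04 (spermatogonium and preleptotene, 11) in pachytene cells. Other medians were -0.02 (round spermatid, 10), 0.13 (peritubular myoid, 5) and 0.24 (pachytene, 10). No gene of these lists was called, and their part in the members' shift was not tested. The median of the later stages was 0.03 (round) and 0.09 (condensing), against 0.00 and -0.01 over all genes.

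**Figure D4:**
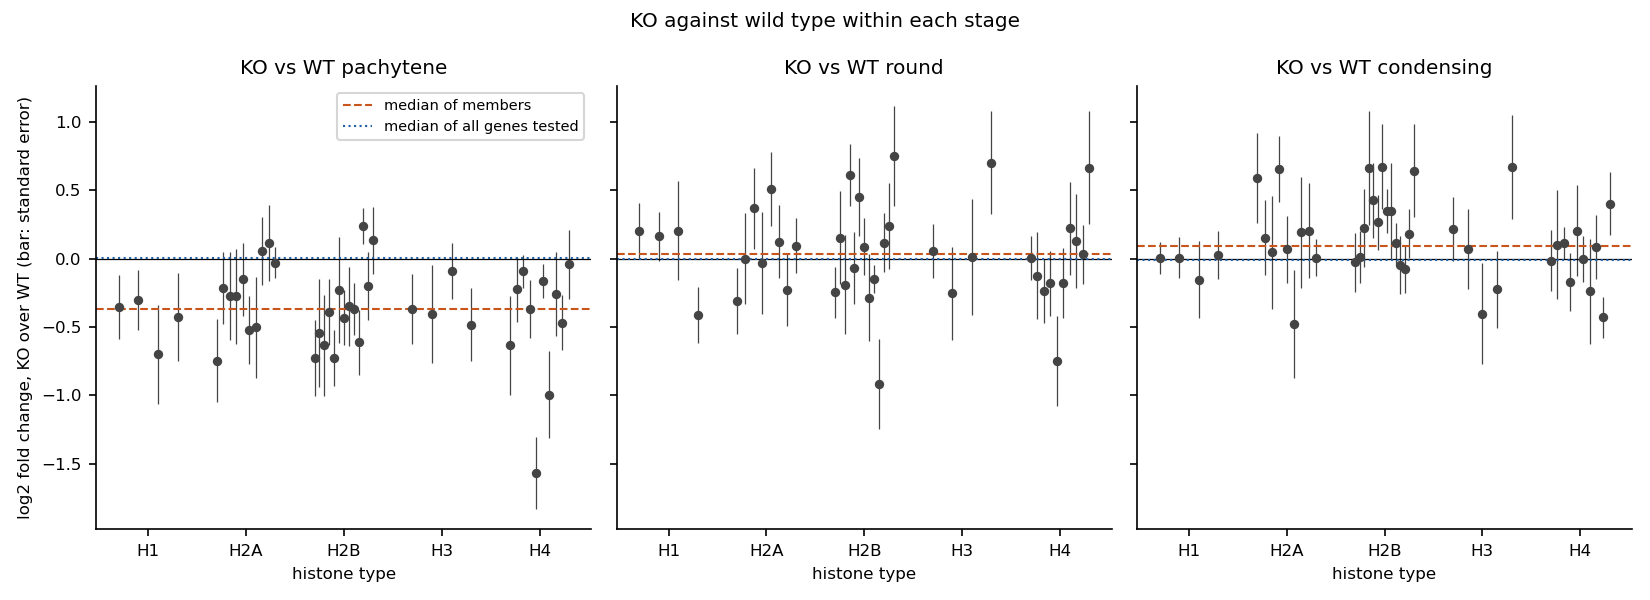
Log2 fold change of KO over wild type for each tested member (points, with standard errors) by histone type, in pachytene, round and condensing cells. Dashed lines are the median of the members and dotted lines the median of all genes tested. Most points in the pachytene panel lie below 0, and no point in any panel passed an adjusted p of 0.05.

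Hist1h4f, an H4 gene, had the smallest p in pachytene cells. It had 36, 43 and 30 reads in wild type and 11, 9 and 9 in the KO, and 30, 27 and 30 against 26, 8 and 16 in round spermatids. The pachytene groups did not overlap, and neither did those of 22% of tested members and 11.3% of all tested genes. The log2 fold change was -1.57 (SE 0.26), and it missed the threshold after adjustment over all genes (unadjusted p = 0.000215, adjusted p = 0.631, edgeR's quasi-likelihood test). Without wild-type pachytene replicate 3, 3 members were called lower, with Hist1h4f (adjusted p = 0.0462) and Hist1h4i (0.0446) among them in edgeR. Without wild-type round replicate 1, 2 members were called in round spermatids. The shares of all genes called in both refits are not given here, so these counts have no background beside them. The difference of the KO effect between stages was tested as an interaction over the 18 libraries. Between round and pachytene cells 0 of 45 members passed (0.00% of all 14479 genes, and 0 members by DESeq2). At an unadjusted p under 0.05 there were 2 members and 1050 of all genes. The median was 0.45 over members and 0.00 over all genes. Between condensing and round cells 0 of 45 passed as well (0.00% of all genes, and 0 members by DESeq2). There 2 members and 407 of all genes were under the unadjusted value. Both counts of members that passed were also 0 with the round replicates summed.

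A pair of H4 genes varied between wild-type libraries of the same stage, and both are described after their values were seen. Hist1h4m had 0, 0 and 49 reads in wild-type pachytene cells, 1, 47 and 55 in round spermatids, 0, 1 and 12 at the condensing stage and 8 and 1 in spermatozoa, and never more than 2 in a KO library. Hist4h4, the single gene of the chromosome 6 locus, measured 21.3, 24.4 and 10.4 CPM in wild-type pachytene cells, 14.6, 4.0 and 3.3 in round spermatids and 13.4, 11.03 and 5.4 at the condensing stage. The 4 libraries with the most Hist1h4m reads (pachytene 3, round 2 and 3, condensing 3) were thus the lowest wild-type libraries of their stage for Hist4h4. KO libraries of these stages gave 10.4 to 19.3 CPM of Hist4h4. The gene most like Hist1h4m outside the members, 1700084F23Rik, had 42, 180, 182 and 88 reads in those 4 libraries and 4 at most in any other (r = 0.92). Hist4h4 passed in wild-type round against pachytene cells (log2 fold change -1.32, SE 0.47, adjusted p = 0.0234, edgeR), but not with round replicates 2 and 3 summed (adjusted p = 0.0751), nor by DESeq2 (0.0742), nor without any one of pachytene replicates 1 and 2 and round replicates 2 and 3. Which libraries share an animal is not given in the sources used here.

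**Figure D5:**
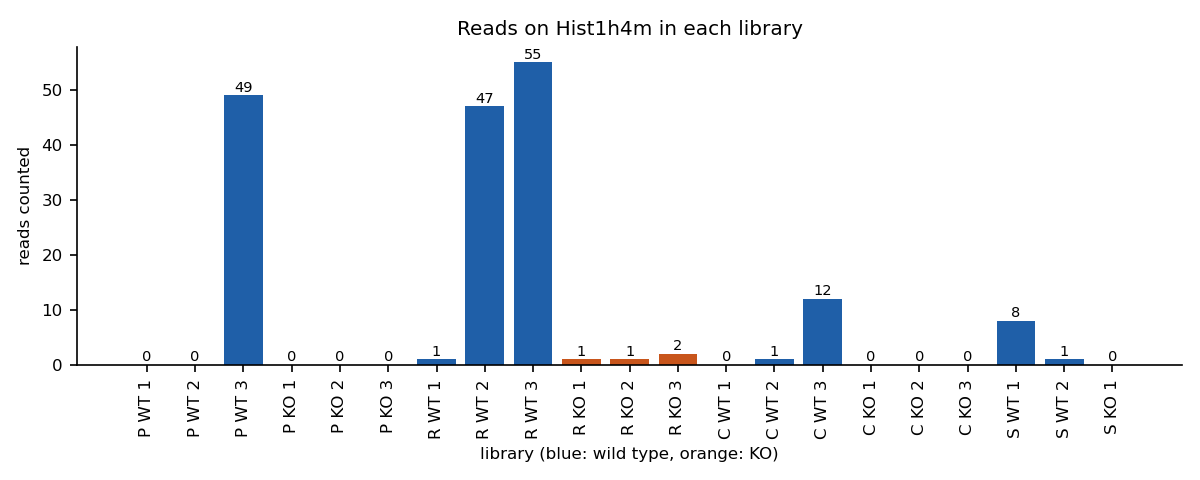
Reads counted on Hist1h4m in each of the 21 libraries (bars, with the count above; blue wild type, orange KO), by stage. Wild-type pachytene 3, round 2 and 3 and condensing 3 hold 12 to 55 reads, spermatozoa wild type 1 holds 8, and the other 16 libraries hold 2 or fewer.

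Genes that make and process histone mRNA were measured beside the members. Of 25 such genes tested in wild type, 15 were lower and 2 higher in round spermatids than in pachytene cells, with a median log2 fold change of -0.87, where 35.9% of all genes were lower and 34.4% higher. In KO cells 19 of the 25 were lower and 1 higher, beside 38.4% and 36.5%. Slbp, whose protein binds the stem-loop, was at -1.32 (SE 0.13, adjusted p = 9.6e-07, edgeR). Upf1, a helicase needed for histone mRNA decay, fell by 3.14 on the log2 scale (SE 0.15) and Snrpb, a core protein of spliceosomal particles, by 2.24 (SE 0.15), while Cstf2, a 3′ end cleavage factor, rose by 2.01 (SE 0.16). Npat, the coactivator of histone gene transcription, gave -0.06 (SE 0.20). In condensing spermatids 4 were higher and 4 lower (28.3% and 21.8% of all genes), Upf1 (1.30, SE 0.14) and Snrpb (0.98, SE 0.16) among the higher ones and the histone chaperone Nasp (-0.72, SE 0.18) among the lower. Of 29 tested S-phase replication genes 16 were lower and 3 higher in round spermatids, with the kinase Cdk2 at -3.44 (SE 0.14), the cyclin Ccne2 at -2.81 (SE 0.22) and the flap endonuclease Fen1 at 2.13 (SE 0.19), and 5 were higher and 5 lower at the condensing stage. Among 10 genes of replacement histones, variants that can enter chromatin outside S phase, 6 fell and 2 rose in round spermatids. H2afx fell by 2.43 (SE 0.20) and H2afy by 1.73 on the log2 scale, and H2afy2 rose by 1.65 (SE 0.28). None of these lists held a call between KO and wild type at any of the 3 stages, where 0 to 2 of all genes passed.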

How the data were processed

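RNA of 21 libraries was compared by gene. Per the labels, libraries were stranded total RNA with ribosomal RNA removed, sequenced as pairs of 75-base reads. The authors deposited whole-number read counts per gene on mm10 for each library, without normalisation. The submitters' processing notes name STAR 2.7.11b, HTSeq and DESeq2 1.22.2. The 5 rows that name no gene together held 34.6% to 57.7% of each library's total and were left out. Non-unique alignments, 1 of these rows, made up 3.70% to 15.5% of the total, with the highest shares in spermatozoa. Leaving them out lowers near-identical histone genes. Counts were scaled by TMM and tested with edgeR 4.0.16 (R 4.3.3), quasi-likelihood, after filterByExpr (minimum count 10), with Benjamini-Hochberg adjustment over all genes tested. Wild-type and KO stage changes were fitted on 9 libraries each, KO against wild type on 6 libraries a stage, spermatozoa on 5. DESeq2 1.42.0 was an alternative. Lengths, stem-loops and positions came from GENCODE M21 and RefSeq GRCm38.p6. A bounding value of 3 reads was used for a count of 0, covering counting error only. The test was tried on simulated data.

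Members and gene lists were chosen with earlier results of these data known. Named genes are the 3 highest members of each type per kilobase, up to 3 members per direction and comparison with the smallest adjusted p and no overlap, the highest member of Hist2, Hist3 and Hist4, up to 3 genes per list and comparison with the largest change, and the 3 most similar genes for the highest member of each type. Others were named after their values were seen.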

Additional observations from a re-analysis of the deposited data

Results flagged for a closer look

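The single KO spermatozoa library enters no comparison. In it, 5 members with at least 10 reads stood more than 2 times above the higher of both wild-type spermatozoa libraries. These were 5 of the 30 members with at least 10 reads (16.7%), close to 2018 of all 12603 such genes (16.0%). Hist1h1b, a linker histone gene of dividing cells, measured 7.39 CPM (24 reads) against 2.12 at most. Hist1h2af measured 4.92 CPM (16 reads, against 1 and 0 in wild type), and 70.5% of its windows are shared with other genes. Hist1h3c measured 3.69 CPM against 1.76 at most, Hist1h4k 12.0 against 5.88, and Hist4h4 15.1 against 7.41. Macrophage markers summed to 5698 CPM in this library and to 1609 to 1713 in wild-type spermatozoa, elongating spermatid markers to 11370 against 32580 to 36870, and replacement histone genes to 1139 against 665 to 698. With 1 library, the differences have no replicate check, and the part of these groups of genes was not tested.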

How the results depend on the processing

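Counts of called members stayed within 1.5 times of the reported ones except in these cases. Requiring 10 counts in every library left 7 called members in KO condensing against round spermatids (15 reported) and 14 in spermatozoa against condensing spermatids (28 reported). Keeping every gene with a count gave 1 call in KO against wild-type round spermatids (0 reported). Leaving out each library in turn gave 12 to 17 calls for wild-type round against pachytene cells, 9 to 16 for wild-type condensing against round, 14 to 24 and 13 to 17 for the same steps in the KO, and 21 to 30 for spermatozoa. It gave 0 to 3 calls for KO against wild type in pachytene cells (3 without wild-type replicate 3), 0 to 2 for round spermatids (2 where wild-type replicate 1 was left out), 0 in condensing spermatids, 0 to 1 for the KO effect between round and pachytene cells (1 without replicate 3) and 0 between condensing and round. The summed wild-type level ranged from 796 to 944 CPM in pachytene, 417 to 471 in round and 470 to 554 in condensing libraries. Of 781 refits of 54 gene and comparison pairs, 29 lost the call, 2 gained it and none changed direction; the cause was not tested. Replicate numbers did not pair the genotypes (correlations of deviations -0.21 to 0.25), and with the number as a replicate block wild-type condensing against round gave 15 calls (12 reported), the KO step from pachytene to round 20 (19 reported) and each KO against wild-type comparison 0. Members with few reads limit what could be called, and the shares of all genes called in these refits are not given here.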
